A study of Mus musculus with 16 samples.

Results

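Mitochondria divide, fuse and are cleared by a small set of nuclear-encoded proteins. The 9 genes described here are Opa1, Mfn1, Mfn2, Dnm1l, Fis1, Pink1, Bnip3, Bnip3l and Fundc1. They were chosen by name, as genes of mitochondrial dynamics and mitophagy, out of 22911 genes with a symbol on the array, and all 9 had at least 1 probe. Their transcripts were compared in brown adipose tissue (BAT) and gonadal white adipose tissue (gWAT), between Adipo-Pgam1 KO mice and littermate controls. Each of the 4 groups has 4 1-colour Agilent arrays, which makes 16. The study asked how loss of phosphoglycerate mutase 1 (Pgam1), an enzyme of glycolysis, in fat cells affects the brown and the white depots. Adipo-Pgam1 KO mice carry Adipoq-Cre and Pgam1 flox/flox, so that Cre is made under the adiponectin promoter, which is active in brown and white adipocytes alike. The littermate controls, labelled wild-type, carry no Cre but, per the methods, the same floxed alleles. All mice were male, of the strain given as C57BL/6NCrSlc, housed at 23 degrees on normal food, and 16 weeks old, apart from the KO replicate 4 of each tissue, which is labelled 14 weeks. The labels do not say that each array is a separate mouse, so p-values measure the spread between arrays.

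Fusion of the outer membrane is carried out by the mitofusins (Mfn1, Mfn2), and fusion of the inner membrane by Opa1. Division needs the dynamin-related protein Drp1, encoded by Dnm1l, while Fis1 is an outer-membrane protein linked to division and to mitophagy. Damaged mitochondria are removed by mitophagy, either after the kinase Pink1 has marked them for ubiquitination, or through receptors in the outer membrane (Bnip3, Bnip3l and Fundc1) that bind the autophagosome directly. Brown adipocytes are packed with mitochondria for heat production, and when brown or beige fat turns white, mitophagy lowers their number. Bnip3 is also a known target of the hypoxia-inducible factors.

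The start regions of the genes are given first, because Bnip3 had the most negative change of the 9 in both tissues. RefSeq's promoter table (GRCm38.p6) held 8 of the 9 genes, in 12 windows. Bnip3l had no entry. Each window is the 250 bases before an annotated start, written 5′ to 3′ on the gene's strand. The windows shown are those of Bnip3 (chr7:138909507-138909756, minus strand), Pink1 (chr4:138326297-138326546, minus strand) and Opa1 (chr16:29579084-29579333, plus strand), the mitophagy genes that changed most in BAT and the inner-membrane fusion gene. Capitals mark matches to the searched motifs.
Bnip3: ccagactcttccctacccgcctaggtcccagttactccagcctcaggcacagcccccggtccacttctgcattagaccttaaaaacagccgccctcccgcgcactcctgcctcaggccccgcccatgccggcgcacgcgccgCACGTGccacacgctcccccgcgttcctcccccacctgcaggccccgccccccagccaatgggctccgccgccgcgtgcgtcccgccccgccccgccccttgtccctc
Pink1: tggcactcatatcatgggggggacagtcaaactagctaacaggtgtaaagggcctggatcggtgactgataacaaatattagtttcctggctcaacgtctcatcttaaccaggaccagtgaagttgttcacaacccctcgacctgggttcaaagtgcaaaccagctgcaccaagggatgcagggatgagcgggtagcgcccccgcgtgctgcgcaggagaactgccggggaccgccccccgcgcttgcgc
Opa1: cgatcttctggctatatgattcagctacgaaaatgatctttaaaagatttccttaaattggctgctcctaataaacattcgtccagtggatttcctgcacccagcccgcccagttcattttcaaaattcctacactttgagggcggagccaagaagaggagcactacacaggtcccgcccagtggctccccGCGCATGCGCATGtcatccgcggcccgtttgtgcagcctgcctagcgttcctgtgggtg
On both strands, 3 motifs were searched. They were ACGTG (1 form of the core of the hypoxia response element, read as CACGT on the opposite strand), AAGGTCA (a site of oestrogen-related receptors) and GCGCATG (a stretch of the site of nuclear respiratory factor 1). The Bnip3 window held ACGTG on both strands as the palindrome CACGTG, which is also an E-box, ending 103 bases before the start. Besides Bnip3, 1 of the Mfn2 windows held ACGTG, so that 2 of the 12 windows had it, and 16.6% of the 32851 windows in the table. GCGCATG was found in Opa1 alone among the 8, in 3 overlapping matches over both strands that end 47 bases before the start, and in 3.24% of all windows. AAGGTCA was in none of the 8 and in 4.08% of all windows. The Pink1 window held none of the 3, but other forms of the hypoxia response core were not searched in any window. These are matches of letters, not measured binding.

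Signals were put on the log2 scale after division by the 75th percentile of each array, so that a value of 0 is the 75th percentile, and the brightest probe represented a gene. A gene was tested if 1 or more of the groups compared had it well above background on all 4 arrays, and passed at an adjusted p of 0.05 in limma (Benjamini-Hochberg over all genes). The 9 genes were well above background on all 16 arrays. The 75th percentile was 401.3 to 451.3 intensity units in BAT controls and 650.2 to 916.2 in BAT of Adipo-Pgam1 KO mice. It was 570.3 to 855.3 in gWAT controls and 656.8 to 831.3 in the gWAT arrays labelled KO. Pgam1 itself changed by -1.74 in BAT (adjusted p = 1.11e-05) but by 0.95 in gWAT (adjusted p = 0.0139). The targeted transcript was thus higher in the gWAT arrays labelled KO, so directions in gWAT are those of the label. The brown adipocyte markers Ucp1 and Zic1 were well above background on no control gWAT array, and all 8 adipocyte markers were so on all 16 arrays. In bulk tissue, fewer cells of a type and less RNA per cell cannot be told apart.

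In BAT, 7 of the 9 genes were lower in Adipo-Pgam1 KO mice, and none was higher. Bnip3 fell most, to a relative expression of 0.191, followed by Pink1 (0.498), Mfn2 (0.542) and Opa1 (0.599). Mfn1, Bnip3l and Fis1 fell to between 0.708 and 0.740, and Dnm1l and Fundc1 did not pass the test. Such calls were common in BAT: 61.5% of the 14280 genes tested passed, 27.5% as higher and 34.0% as lower. The median log2 change was -0.50 over the 9 genes and -0.081 over all genes tested.

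**Figure D1:**
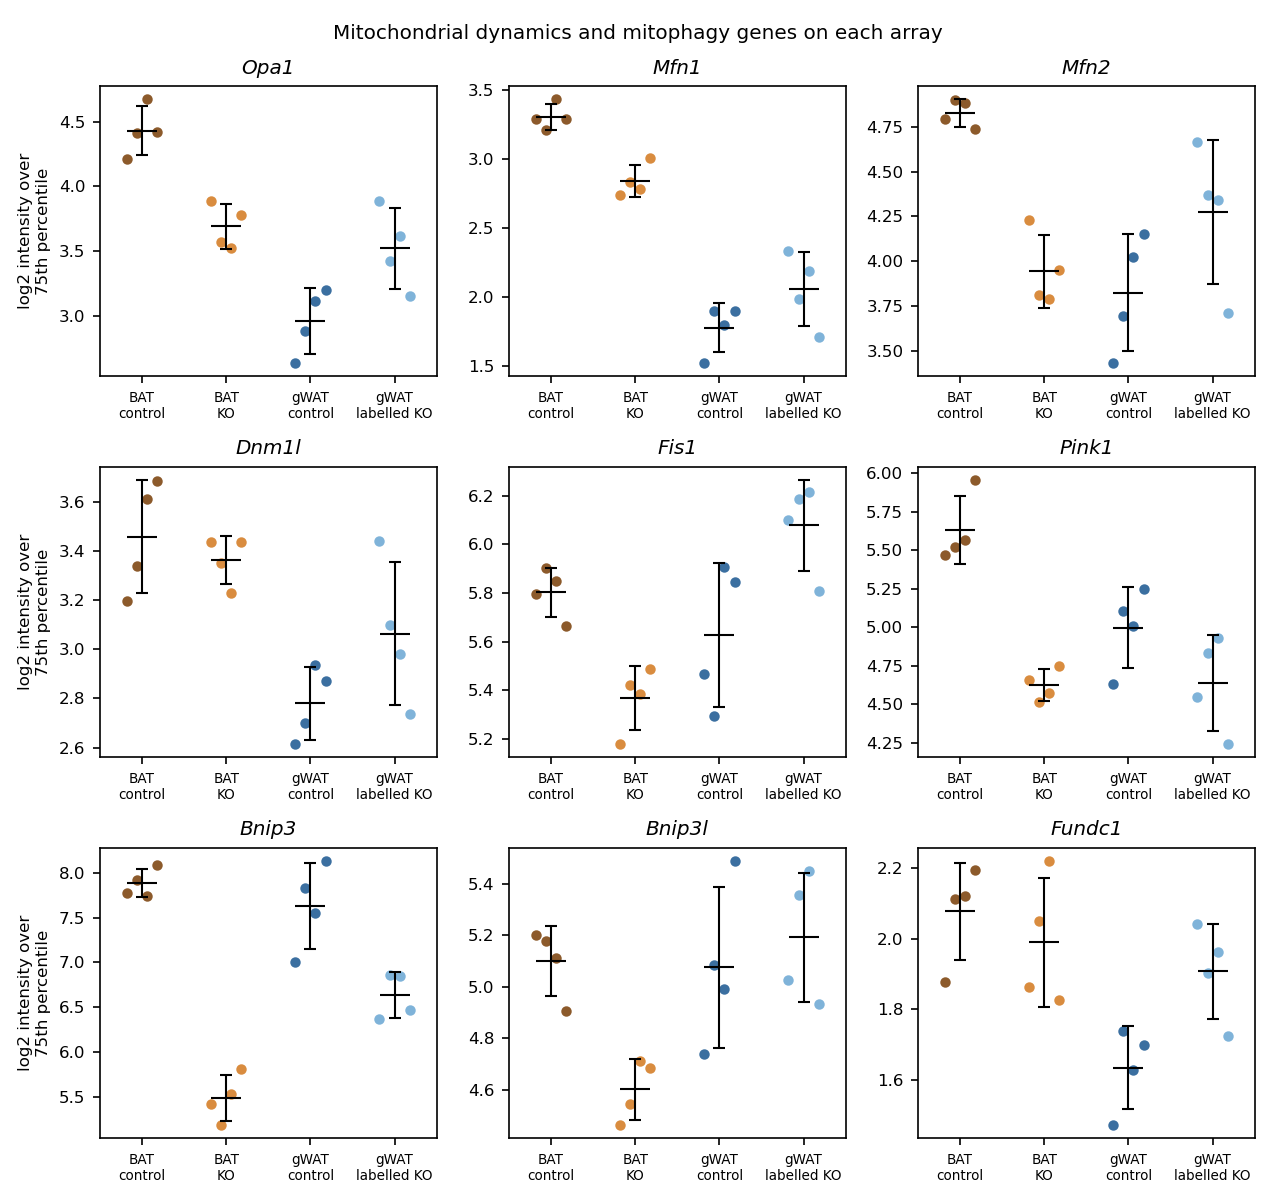
Each panel plots 1 gene, with log2 intensity over the array's 75th percentile on the vertical axis (the scale differs between panels) and the 4 groups on the horizontal axis. Points are arrays, in replicate order from left to right, and bars show the mean ± SD (n = 4). In BAT, the Bnip3 points of Adipo-Pgam1 KO mice (5.19 to 5.81) lie well below those of controls (7.74 to 8.08), while the Dnm1l and Fundc1 points overlap.

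Among the fusion genes, Opa1 stood at 4.21, 4.41, 4.67 and 4.42 on the BAT control arrays (replicates 1 to 4) and at 3.89, 3.57, 3.52 and 3.78 in Adipo-Pgam1 KO mice. Every KO array was lower than every control array, by -0.74 on average (log2, standard error 0.13, adjusted p = 0.00125). A second Opa1 probe, designed on another RefSeq transcript, changed by -1.14. Mfn2, the mitofusin that also tethers mitochondria to the endoplasmic reticulum, was 4.79, 4.90, 4.88 and 4.73 in controls and 4.23, 3.81, 3.79 and 3.95 in Adipo-Pgam1 KO mice. The groups lay well apart, by -0.88 (standard error 0.12, adjusted p = 2.65e-04), and the second probe gave -1.10. Mfn1 was 3.29, 3.21, 3.43 and 3.29 in controls and 2.74, 2.83, 2.78 and 3.01 in Adipo-Pgam1 KO mice. Its fall, again without overlap, was smaller, at -0.47 (standard error 0.099, adjusted p = 0.00325), and was -0.35 with the other probe.

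On the side of division, Dnm1l was 3.19, 3.34, 3.61 and 3.68 in controls and 3.44, 3.35, 3.23 and 3.43 in Adipo-Pgam1 KO mice. These ranges overlapped, and Dnm1l did not pass (log2 change -0.095, standard error 0.13, adjusted p = 0.545). Its call and sign depended on the scaling: the sign turned under 4 of the alternatives tried, of which spike-in scaling gave 0.45 (adjusted p = 0.0253), whereas with Actb and Rplp0 scaling it passed as lower (-0.69, adjusted p = 0.00389). Fis1 was 5.80, 5.90, 5.85 and 5.66 in controls and 5.18, 5.42, 5.38 and 5.49 in Adipo-Pgam1 KO mice. The KO arrays were all lower, and Fis1 changed by -0.44 (standard error 0.10, adjusted p = 0.00590). Here the probes disagreed, since the second Fis1 probe, also well above background on all 16 arrays, changed by -0.11 and did not pass (adjusted p = 0.433).

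Bnip3, the outer-membrane mitophagy receptor of the BH3-only type, was 7.78, 7.92, 7.74 and 8.08 in BAT controls and 5.42, 5.19, 5.54 and 5.81 in Adipo-Pgam1 KO mice. The lowest control array was 1.93 above the highest KO array on the log2 scale. Bnip3 changed by -2.39 (log2, standard error 0.15, adjusted p = 9.38e-06), and 1.04% of the genes tested had a lower change. Its paralogue Bnip3l (also called Nix), which clears mitochondria in maturing red cells, was 5.20, 5.18, 5.11 and 4.90 in controls and 4.46, 4.55, 4.71 and 4.68 in Adipo-Pgam1 KO mice. The groups did not overlap either, but the change was smaller, at -0.50 (standard error 0.11, adjusted p = 0.00346), with -0.42 from the other probe. Fundc1, a receptor known from hypoxic mitophagy, was 1.88, 2.11, 2.12 and 2.20 in controls and 1.86, 2.05, 2.22 and 1.83 in Adipo-Pgam1 KO mice. The groups overlapped widely (log2 change -0.088, standard error 0.12, adjusted p = 0.553), and the sign turned under the same 4 scalings as for Dnm1l. With spike-in scaling Fundc1 passed as higher (0.45, adjusted p = 0.0487), and with Actb and Rplp0 scaling it passed as lower (-0.68, adjusted p = 0.00151).

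Pink1, the kinase that starts ubiquitin-dependent mitophagy, was 5.47, 5.52, 5.57 and 5.96 in BAT controls and 4.66, 4.51, 4.57 and 4.75 in Adipo-Pgam1 KO mice. The groups did not overlap, and Pink1 changed by -1.01 (log2, standard error 0.13, adjusted p = 1.91e-04), or by -1.41 with a second probe. In all, the groups did not overlap for the 7 genes that passed, as for 57.1% of all genes tested.

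**Figure D2:**
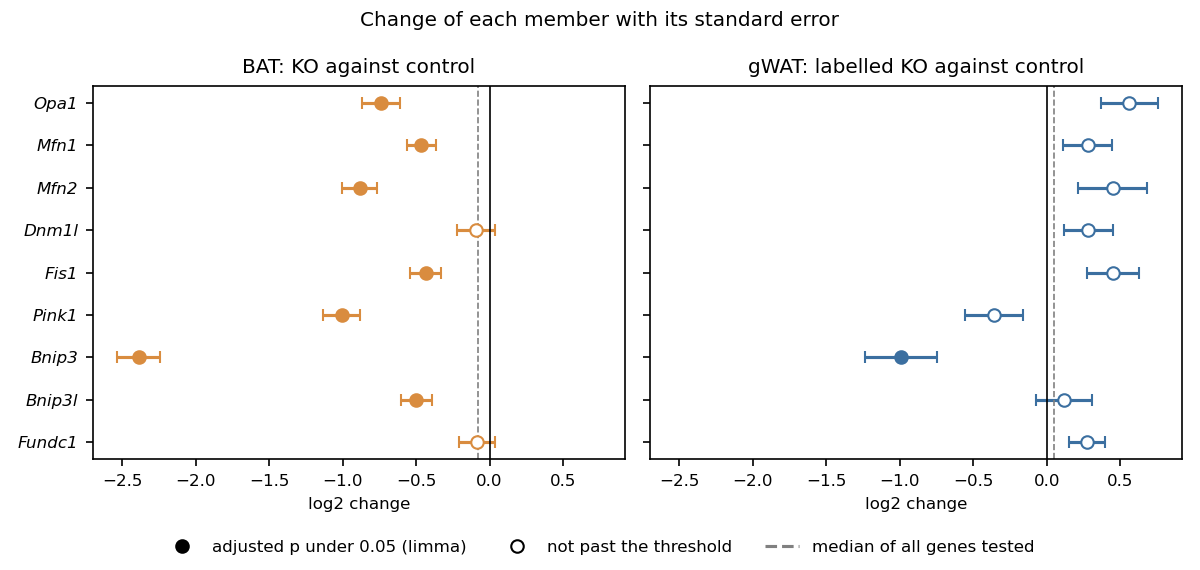
Points are log2 changes in BAT (left) and gWAT (right) with standard errors from limma, filled where the adjusted p was under 0.05, and the dashed line is the median of all genes tested. In BAT, 7 filled points lie left of 0, whereas in gWAT only Bnip3 is filled and 7 points lie to the right of 0.

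Markers of other cell types moved in the same arrays. All 9 macrophage markers were on the array and 8 rose in BAT, with a summed linear level over the 75th percentile of 28.3 to 40.2 in controls and 98.8 to 148 in Adipo-Pgam1 KO mice. All 5 fibroblast markers rose (summed 117 to 163 against 213 to 307). Of the adipocyte markers 7 of 8 fell (3010 to 3380 against 1160 to 1560), and of the brown adipocyte markers 6 of 8 (4280 to 4600 against 1400 to 2300). The 8 skeletal muscle markers summed to 0.819 to 1.55 in controls, where Ckm, Myh4 and Myh1 were well above background on no array, and to 1.2 to 92.7 in Adipo-Pgam1 KO mice. These sums overlapped, and of the 5 muscle markers tested only 1 passed, Acta1, as higher. The part of these cell types in the fall of the 7 genes was not tested. The changes of the 8 adipocyte markers ran from -2.40 (Cidec) to -0.71 (Lpl), and were set beside the 7 genes after the values were seen. Bnip3, Pink1, Mfn2 and Opa1 lay within that range, while Mfn1, Bnip3l and Fis1 fell less.

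In BAT, 3 control arrays lay on slide 1, and the remaining control (replicate 4) shared slide 2 with the 4 KO arrays. Against that single control, the log2 difference was -2.59 for Bnip3, -1.33 for Pink1, -0.79 for Mfn2 and -0.73 for Opa1. All 9 differences kept the sign of the pooled value. Mfn1 differed by -0.45, Fis1 and Bnip3l by -0.30 each, Dnm1l by -0.32 and Fundc1 by -0.21. With the slide as a fixed block, Fis1 (adjusted p = 0.148) and Bnip3l (adjusted p = 0.124) no longer passed.

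In gWAT, Bnip3 was lower in the arrays labelled KO than in controls, while no other of the 9 genes passed in limma. Its relative expression was 0.502. At an unadjusted p under 0.05 in limma, Opa1 and Fis1 would have been called higher as well. The genes of fusion and division, in contrast, had values above 0, from 0.28 for Mfn1 and Dnm1l to 0.56 for Opa1, none of them past the threshold. Of all 14149 genes tested in gWAT, 17.8% passed, 9.99% as higher and 7.85% as lower. The median log2 change was 0.28 over the 9 genes and 0.047 over all genes tested.

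Bnip3 stood at 7.01, 7.83, 7.55 and 8.13 on the gWAT control arrays and at 6.37, 6.86, 6.84 and 6.47 on the arrays labelled KO. The lowest control lay just above the highest array labelled KO, and Bnip3 was the only 1 of the 9 genes without overlap, against 24.2% of all genes tested. The mean difference was -0.99 (log2, standard error 0.24, adjusted p = 0.0273). This call was near the threshold. It was lost without control replicate 2 (adjusted p = 0.0726), 3 (0.0563) or 4 (0.0517), or without replicate 1 (0.0792), 2 (0.0507) or 3 (0.0548) of the arrays labelled KO, although the change stayed between -1.20 and -0.83. Against the 1 control array on the same slide as the arrays labelled KO, the difference was -1.49, and with the slide as a fixed block it did not pass (adjusted p = 0.0871).

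The other mitophagy genes were less uniform. Pink1 was 4.63, 5.10, 5.01 and 5.25 in gWAT controls and 4.55, 4.83, 4.93 and 4.24 in the arrays labelled KO (log2 change -0.36, adjusted p = 0.228). The groups overlapped, and the second Pink1 probe had the opposite sign (0.15, adjusted p = 0.673). Bnip3l was 4.74, 5.08, 4.99 and 5.49 in controls and 5.03, 5.35, 5.45 and 4.93 in the arrays labelled KO, a log2 change of 0.12 (adjusted p = 0.708). Fundc1 was 1.47, 1.74, 1.63 and 1.70 in controls and 2.04, 1.90, 1.96 and 1.73 in the arrays labelled KO. Only the lowest array labelled KO fell within the range of the controls, but the log2 change of 0.27 (standard error 0.12) did not pass over all genes (adjusted p = 0.152).

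Among the fusion genes in gWAT, Opa1 was 2.63, 2.88, 3.12 and 3.20 in controls and 3.89, 3.43, 3.61 and 3.15 in the arrays labelled KO. Replicate 4, the array labelled 14 weeks, was the lowest and the only one to overlap the controls. Opa1 changed by 0.56 (log2, standard error 0.19, adjusted p = 0.0755), and without that array it was 0.68 and passed (adjusted p = 0.0358). Mfn2 was 3.43, 3.69, 4.02 and 4.15 in controls and 4.67, 4.37, 4.34 and 3.71 in the arrays labelled KO, where replicate 4 was again lowest. Its brightest probe changed by 0.45 (adjusted p = 0.213), whereas the second, designed on another transcript, changed by 0.77 and passed (adjusted p = 0.0401). Mfn1 was 1.52, 1.90, 1.80 and 1.90 in controls and 2.33, 1.99, 2.19 and 1.71 in the arrays labelled KO (log2 change 0.28, adjusted p = 0.271). With its other probe, the Mfn1 change was 0.013.

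Dnm1l was 2.61, 2.70, 2.94 and 2.87 in gWAT controls and 3.44, 3.10, 2.98 and 2.74 in the arrays labelled KO, with a log2 change of 0.28 (adjusted p = 0.266). Fis1 was 5.47, 5.29, 5.91 and 5.85 in controls and 6.10, 6.19, 6.22 and 5.81 in the arrays labelled KO. Again the lowest of the 4 was replicate 4, and the change of 0.45 (standard error 0.18) did not pass (adjusted p = 0.106). Within the slide that held the arrays labelled KO and 1 control, the differences were 0.32 for Opa1, 0.23 for Fis1, 0.21 for Fundc1, 0.19 for Dnm1l, 0.16 for Mfn1 and 0.12 for Mfn2. There Pink1 differed by -0.61 and Bnip3l by -0.30, a turn of sign for Bnip3l.

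Of the 5 brown adipocyte markers tested in gWAT (of 8), 4 rose in the arrays labelled KO, with a summed level of 25.7 to 61.9 in controls and 126 to 329 in the arrays labelled KO, where Zic1 was well above background on no array. Adipocyte markers summed to 2690 to 4180 and 2340 to 3150 (2 of 8 fell), macrophage markers to 68.9 to 94.2 and 73.2 to 219 (2 of 9 rose), and fibroblast markers to 354 to 376 and 271 to 403 (1 of 5 fell). Skeletal muscle markers summed to 3.08 to 24.8 in controls and 29.9 to 58.1 in the arrays labelled KO, although none of the 5 tested passed in limma (2 higher and 1 lower at an unadjusted p under 0.05) and Ckm, Myh4 and Myh1 were well above background on no array labelled KO. Their part in the values of the 9 genes was not tested.

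Bnip3 moved away from every other gene of the set in both tissues. The difference between its log2 change and that of another of the 9 genes is not altered when all values of an array are multiplied by 1 factor, though quantile normalization can alter it. In BAT, the change of Bnip3 minus that of the other gene ran from -1.38 against Pink1 to -2.30 against Fundc1. In gWAT, the gaps ran from -0.63 against Pink1 to -1.55 against Opa1. The gap to its paralogue Bnip3l was -1.89 in BAT and -1.11 in gWAT. Bnip3 was taken for this description after its values were seen, so no test is given.

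The change differed between the tissues for 7 of the 9 genes (limma interaction over the 16 arrays, gWAT change minus BAT change), each more positive in gWAT. Over all 14820 genes tested, 48.3% passed, 27.4% as more positive and 20.9% as less positive in gWAT. The median difference was 0.74 for the 9 genes and 0.075 for all genes. Bnip3, which was lower in both tissues, differed by 1.39 (standard error 0.30, adjusted p = 0.00156), since its fall was larger in BAT. Mfn2 differed by 1.33 (standard error 0.27, adjusted p = 0.00121) and Opa1 by 1.30 (standard error 0.24, adjusted p = 5.23e-04), with a fall in BAT and values above 0 in gWAT. Fis1 differed by 0.89 (adjusted p = 0.00242) and Mfn1 by 0.74 (adjusted p = 0.00493), though with its other probe Mfn1 differed by 0.37 and did not pass (adjusted p = 0.174). With the brightest probe, smaller differences were seen for Pink1 (0.65, adjusted p = 0.0353) and Bnip3l (0.61, adjusted p = 0.0325). The second probes gave 1.56 for Pink1 (adjusted p = 3.45e-04), 0.55 for Bnip3l (adjusted p = 0.0399) and 0.51 for Fis1 (adjusted p = 0.0468). They gave 1.87 for Mfn2 and 1.81 for Opa1. For Pink1 and Bnip3l, the calls of the brightest probe were lost without 1 array in 7 and 9 of 16 fits. For Pink1 these arrays were BAT control replicate 4, BAT KO replicates 2 and 3, gWAT control replicates 1 and 3 and gWAT labelled KO replicates 2 and 3 (0.52 to 0.65). For Bnip3l they were BAT control replicates 1 to 3, BAT KO replicates 1 and 2, gWAT control replicates 1 and 3 and gWAT labelled KO replicates 2 and 3 (0.50 to 0.61). Dnm1l (0.38, adjusted p = 0.154) and Fundc1 (0.36, adjusted p = 0.0821) did not pass. With the slide as a fixed block, adjusted p ran from 0.0665 for Opa1 to 0.988 for Bnip3l, all above the threshold. With the scan day as a fixed block, chosen after seeing the data, Opa1 (1.06, adjusted p = 0.0202) and Mfn2 (1.002, adjusted p = 0.0429) passed, while Bnip3 (0.90, adjusted p = 0.0665), Fis1 (adjusted p = 0.0655), Mfn1 (adjusted p = 0.0758), Pink1 (adjusted p = 0.346) and Bnip3l (adjusted p = 0.566) did not. The scaling moved the size of the differences, which ran from 0.95 to 1.83 for Opa1, 0.91 to 1.86 for Mfn2, 0.58 to 1.93 for Bnip3, 0.42 to 1.28 for Mfn1 and 0.31 to 1.42 for Fis1. For Pink1 they ran from 0.016 to 1.18 and for Bnip3l from 0.096 to 1.15. Without a block and with the 75th percentile, all 9 had an interaction above 0, and 8 of them, all but Dnm1l, had an unadjusted p under 0.05.

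**Figure D3:**
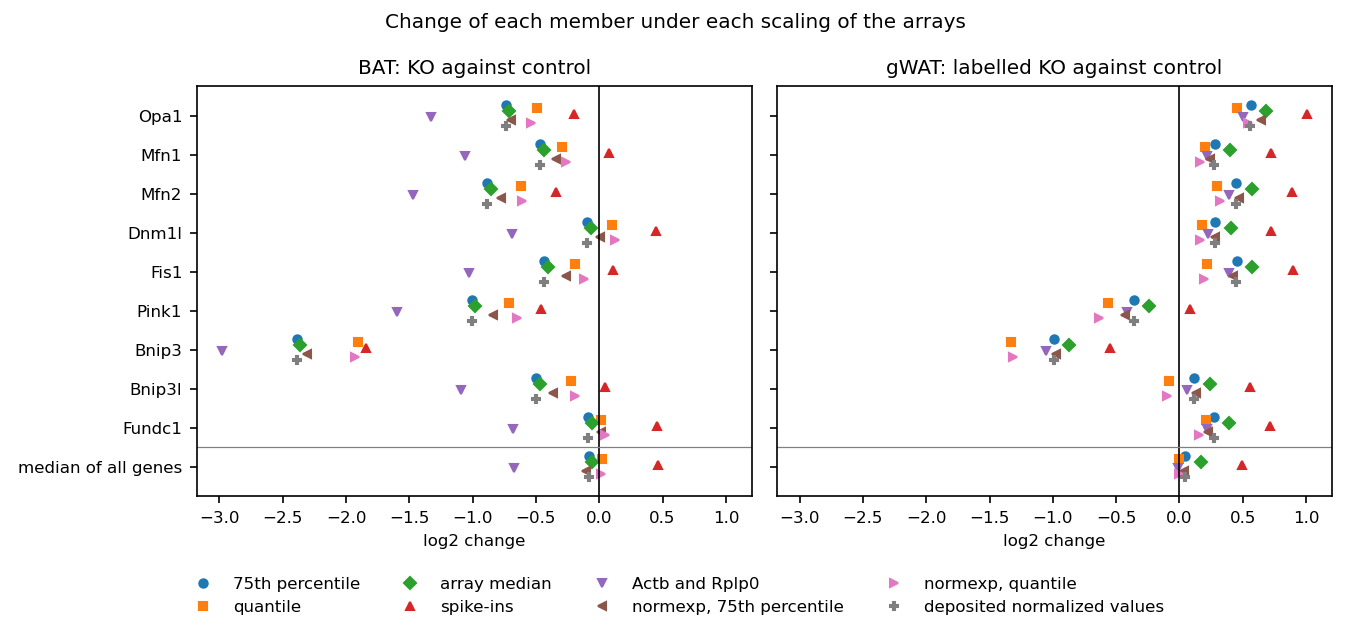
Each symbol is the log2 change of a gene (rows) in BAT (left) or gWAT (right) under 1 way of scaling the arrays, with the median of all genes tested in the bottom row. Bnip3 lies left of 0 under every scaling shown in both tissues (-2.98 to -1.85 in BAT, -1.33 to -0.55 in gWAT), whereas Dnm1l and Fundc1 fall on either side of 0 in BAT.

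Directions in BAT depended on scaling for the smaller changes. With spike-in scaling the median change of all genes in BAT was 0.46, and with Actb and Rplp0 scaling it was -0.67, against -0.081 in the values used here. Under spike-in scaling Mfn1 (0.076), Fis1 (0.11) and Bnip3l (0.045) turned sign, and Opa1 (-0.20, adjusted p = 0.245) and Mfn2 (-0.34, adjusted p = 0.0753) did not pass. Such scaling shifts all genes of an array alike, so the place of these 5 genes below the median of all genes could not change. Under quantile normalization Fis1 (-0.19, adjusted p = 0.0766) and Bnip3l (-0.22, adjusted p = 0.09) did not pass in BAT. Bnip3 and Pink1 passed as lower in BAT in all 25 and all 26 alternatives tried, with log2 changes under the scalings of -2.98 to -1.85 and -1.60 to -0.46.

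In control mice, 6 of the 9 genes were higher in BAT than in gWAT, as were 35.4% of the 14304 genes tested, while 29.3% were lower (64.7% passed in all). Mfn1 differed by 1.53 (standard error 0.12, adjusted p = 1.26e-05), Opa1 by 1.47 (standard error 0.16, adjusted p = 6.87e-05) and Mfn2 by 1.003 (standard error 0.17, adjusted p = 7.70e-04). The other 3 were Dnm1l (0.68), Pink1 (0.63) and Fundc1 (0.44), and these 6 genes did not overlap between the depots, as was the case for 60.8% of all genes. Fis1 (0.18), Bnip3 (0.25) and Bnip3l (0.024) did not pass, and their sign changed with quantile normalization, to -0.30, -0.63 and -0.38, where Bnip3 (adjusted p = 0.00726) and Bnip3l (adjusted p = 0.0302) passed as lower in BAT. The median difference was 0.63 for the 9 genes and 0.097 for all genes. This comparison shares its control arrays with the others.

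The order of the 4 groups differed from gene to gene. For Opa1, Mfn1, Dnm1l and Fundc1 it ran from BAT controls through BAT of Adipo-Pgam1 KO mice and gWAT labelled KO to gWAT controls. Of these neighbours, the first pair did not overlap for Opa1 and the first 2 pairs did not for Mfn1, while all other neighbours overlapped. For Mfn2 the gWAT arrays labelled KO (4.27 ± 0.40, SD, n = 4) came second, with a range that overlapped BAT of Adipo-Pgam1 KO mice (3.94 ± 0.20, SD, n = 4). For Pink1, BAT controls (5.63 ± 0.22, SD, n = 4) lay above the other 3 groups, which overlapped with their neighbours. For Bnip3, both controls overlapped (7.88 ± 0.16 in BAT and 7.63 ± 0.48 in gWAT, SD, n = 4). Next came gWAT labelled KO at 6.64 ± 0.25, and BAT of Adipo-Pgam1 KO mice was lowest at 5.49 ± 0.26 (SD, n = 4), with no overlap at either step. For Fis1 and Bnip3l, gWAT labelled KO had the highest mean and BAT of Adipo-Pgam1 KO mice the lowest, and only the last step of Bnip3l was without overlap.

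The rest of the machinery was described from lists that do not hold the 9 genes, to be read against all genes tested, of which 34.0% were lower and 27.5% higher in BAT (median -0.081). In BAT, 14 of 17 genes tested for fusion and shaping of the inner membrane were lower and 2 higher (median -0.71). Pld6, the mitochondrial phospholipase that promotes fusion (-2.21), and Miga2, which acts through it (-1.72), fell most. Miga1 (0.72) and Oma1 (0.52), the protease that cleaves Opa1, rose. Of 10 fission genes tested, 7 were lower and 1 higher (median -0.42), with Mtfp1 (-1.62) and Mtfr2 (-1.47) falling most and Spire1, an actin nucleator (0.41), rising. Among the genes for mitochondrial movement, 2 of 6 fell, the Miro GTPase Rhot2 (-0.82) and its adaptor Trak1 (-0.81), and Armcx3 rose (1.63), shares near or below those of all genes.

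The list of ubiquitin enzymes of mitophagy also holds Ubb, a gene of ubiquitin itself. Its genes were lower in 6 of 8 cases in BAT (median -0.52), among them Ubb (-0.63) and the ubiquitin ligase gene Marchf5 (-0.90). Of 14 tested receptors and adaptors, 7 were lower and none higher in limma (1 higher at an unadjusted p under 0.05, median -0.27), with Nipsnap1 (-1.30) and Tomm7, which stabilises Pink1 at the outer membrane (-0.90), falling most. Import and porin genes were lower in 8 of 13 cases (median -0.41), including Timm50 (-1.07) and Timm23 (-0.90). Of 9 regulators of mitochondrial biogenesis, 6 were lower and 1 higher (median -0.59). The coactivator Ppargc1b (-1.94) and Perm1 (-1.72) fell, and Nrf1, for nuclear respiratory factor 1, rose (0.71).

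**Figure D4:**
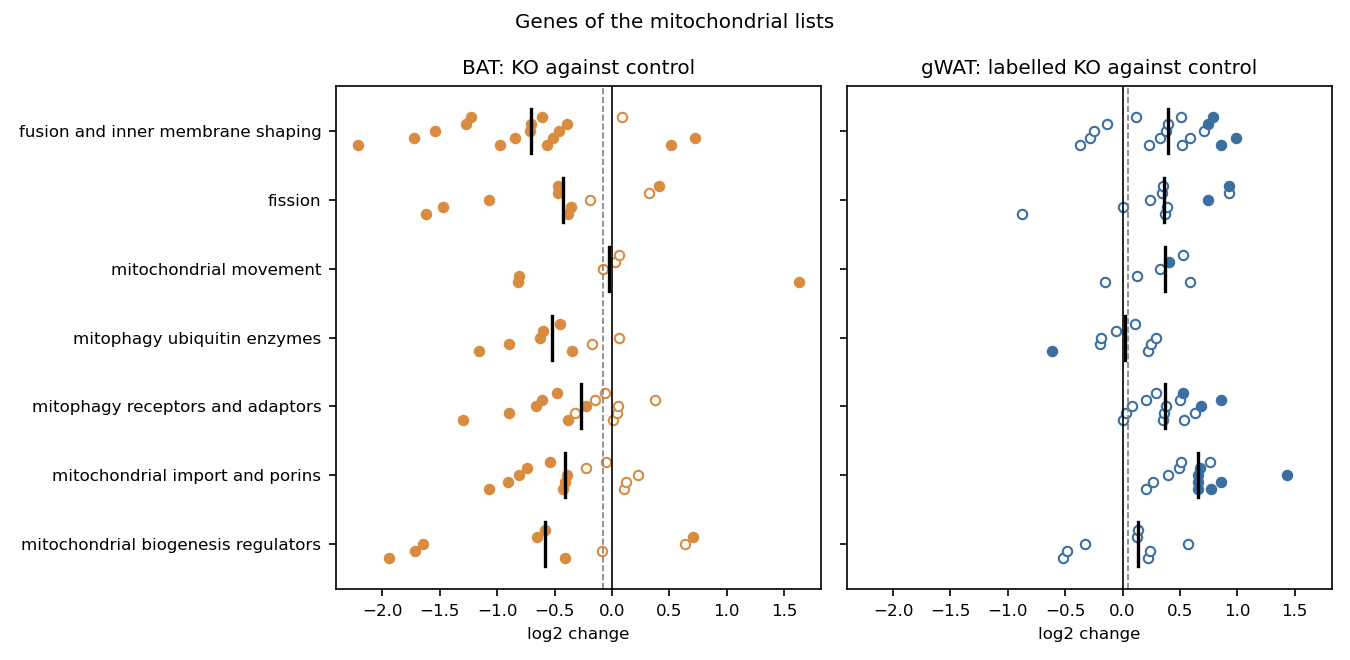
Points are the log2 changes of the genes tested in each list, in BAT (left) and gWAT (right), filled where the adjusted p was under 0.05, with a black bar at the list's median and a dashed line at the median of all genes tested. Medians in BAT run from -0.71 (fusion and inner membrane shaping) to -0.027 (movement), and in gWAT from 0.024 (ubiquitin enzymes) to 0.66 (import and porins).

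In gWAT, where 9.99% of all genes tested were higher and 7.85% lower (median 0.047), fewer genes of these lists passed, and those of import, fusion, fission, movement and the receptors that did were higher in the arrays labelled KO. Import and porin genes were higher in 7 of 13 cases (median 0.66), with the import motor Hspa9 (1.43) and Timm17a (0.86) rising most. Fusion and inner membrane genes were higher in 4 of 17 cases (median 0.40), led by Letm1 (0.99) and the cristae protein Chchd3 (0.86). Of 10 fission genes, 2 rose, Spire1 (0.93) and Mief2, a Drp1 receptor (0.74). Receptors and adaptors were higher in 3 of 14 cases, led by Optn (0.86) and Bcl2l13 (0.68), and 1 of 6 movement genes rose (Trak2, 0.40). None of the 8 tested biogenesis regulators passed in limma, where 1 was higher and 1 lower at an unadjusted p under 0.05.

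Across the 16 arrays, Mfn1 and Opa1 were the most closely related pair of the 9 (Pearson's r 0.92), and Bnip3 followed Pink1 most closely (0.80). The lowest value was that of Bnip3l and Dnm1l (-0.27). These 16 points share tissue and genotype, so r describes mainly how group means line up. Over 12359 genes well above background on every array, the nearest to Opa1 were Immt, the core protein of cristae junctions, and Gfm2 (both 0.98). Rmdn1 and Pdss2 (both 0.99) were nearest to Mfn1, Smpd1 and Tmx2 (both 0.97) to Mfn2, and Eci3 (0.98) and the lipase gene Pnpla2 (0.96) to Pink1. Bnip3 lay nearest to Atraid (0.98) and Ntrk2 (0.98). For Dnm1l they were Sacm1l (0.96) and Mrps22 (0.95), for Fis1 Nedd8 (0.94) and Atp6v0d1 (0.93), for Bnip3l Prpf6 (0.93) and Inpp5k (0.92), and for Fundc1 Zfp93 (0.91) and Snrnp27 (0.90).

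Bnip3 was also set beside a list of 14 genes of the hypoxia response. In BAT, 7 of them were lower and 3 higher (median -0.53), against 34.0% lower and 27.5% higher over all genes tested (median -0.081). In gWAT, 1 of 13 was lower and 4 higher (median 0.27), against 7.85% and 9.99% (median 0.047). The genes below were named after their values were seen. Egln3, a prolyl hydroxylase that marks hypoxia-inducible factors for decay, changed by -2.95 in BAT (adjusted p = 1.87e-06) and by 2.12 in gWAT (adjusted p = 0.00461). Pdk1, which inhibits pyruvate dehydrogenase, changed by -1.45 and 1.01 and passed in both. Ankrd37 changed by -2.42 in BAT and, without passing, by -0.60 in gWAT (adjusted p = 0.278). Pfkfb3, which makes an activator of glycolysis, likewise changed by -1.30 in BAT and, without passing, by -0.84 in gWAT (adjusted p = 0.125). The other genes lower in BAT were Egln1 (-1.59), Higd1a (-0.79) and Vegfa (-0.70). In gWAT these had values above 0, at 0.53 for Egln1, which passed (adjusted p = 0.0472), 0.27 for Higd1a and 0.29 for Vegfa. The 3 genes higher in BAT were Slc2a1, the glucose transporter GLUT1 (0.88), Ndrg1 (0.84) and Adm, for adrenomedullin (0.70). Ndrg1 was the 1 gene that was lower in gWAT (-0.87).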

How the data were processed

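Total RNA from BAT and gWAT was labelled with Cy3 and hybridized to Agilent mouse arrays. Background-subtracted signal intensities were deposited by the authors as scanner output of Agilent Feature Extraction 10.7.1.1 (version per the submitters' processing notes). A table of GeneSpring-normalized signal values was also deposited by the authors, on the linear scale and close to the intensity divided by the array's 75th percentile. Spots of the 56605 probes were averaged without irregular ones, divided by the 75th percentile and put on the log2 scale. RefSeq accessions of the probes were matched to symbols with RefSeq's GRCm38.p6 tables (91.9% of 35886 probes matched). The array was annotated on another build, so no probe positions are given. The brightest probe over the 16 arrays represented a gene. A probe counted as well above background on an array where at least 0.5 of its spots carried that flag.

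Tests used limma 3.58.1 (lmFit, eBayes, two-sided) in R 4.3.3, on the 8 arrays of each tissue, on all 16 for the interaction, and on the 8 controls for the depots, and were tested on simulated data. The number of arrays limits the precision. On each array 50% to 62.2% of probes reached that level, and the 16 arrays came from 3 slides and 2 scan days. Genes named were the 9 members, their other probes, Pgam1, up to 2 genes with the largest rise and 2 with the largest fall past the threshold per mitochondrial list and tissue, and the 2 nearest genes by correlation for each member. Members and lists were chosen with earlier results of these data known. Alternatives were other scalings and background corrections, filters, probes (chosen after seeing the data), slide, scan day (chosen after seeing the data) and replicate blocks, the methods' t-test and leaving out each array. 1 gene that this rule names is not reported here.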

Additional observations from a re-analysis of the deposited data

Results flagged for a closer look

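The log2 change differed between gWAT and BAT in the limma interaction test for Opa1 (1.30), Mfn1 (0.74), Mfn2 (1.33), Fis1 (0.89), Pink1 (0.65), Bnip3 (1.39) and Bnip3l (0.61), in each case with a more positive value in gWAT. In gWAT these rest on the label of the arrays, in which Pgam1 was higher. No group of 4 arrays held a single array that stood apart for any of the 9 genes by Dixon's criterion, which sets the gap to the nearest array against the group's range. The nearest to the critical value was Pink1 in BAT controls, where replicate 4, the control on the slide of the KO arrays, lay above the others by 0.793 of the range. The criterion takes 1 gene at a time, so it cannot show an array that is shifted in many genes. Among the gWAT arrays labelled KO, replicate 4, labelled 14 weeks, was the lowest for every gene of the set but Bnip3.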

How the results depend on the processing

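In BAT, 7 of the 9 genes passed in every fit that left out 1 array (7884 to 8719 of all genes) and 4 with spike-in scaling, 2 higher and 2 lower. All lower were 5 with quantile normalization, with normexp and quantile normalization and with the slide as a fixed block, and 9 with Actb and Rplp0 scaling. In gWAT, where Bnip3 was the 1 gene to pass, the count was 3 with quantile normalization and with normexp and quantile normalization (1 higher, 2 lower in each), 7 with spike-in scaling (all higher, without Bnip3 at -0.55, adjusted p = 0.0692), 2 with Actb and Rplp0 scaling and with normexp and 75th percentile scaling (1 higher, 1 lower in each), 3 with 1 fit over the 16 arrays (2 higher, 1 lower) and 4 with the methods' t-test unadjusted (3 higher, 1 lower). It was 0 with arrays centred on their medians, without a filter on dim probes, with the slide as a fixed block and with the methods' t-test after Benjamini-Hochberg adjustment, in each of which Bnip3 kept its sign, and 0 to 2 when 1 array was left out. Over all genes, the 2525 calls in gWAT became 1388 with median centring, 5100 with spike-in scaling, 1138 without the filter, 184 with the slide block, 4040 with 1 fit over the 16 arrays, and 1618 (adjusted) or 4673 (unadjusted) with the methods' t-test. They ranged from 1080 (without labelled KO replicate 1) to 3212 (without labelled KO replicate 4) when 1 array was left out. For the interaction, the genes of the set that passed were 7, but 4 with normexp and quantile normalization and 0 with the slide block (3265 of all genes). They were 5 with quantile normalization, median centring, normexp and 75th percentile scaling, a random slide block and the replicate block. With the scan day block 2 passed, without the filter on dim probes 6, and with Actb and Rplp0 scaling 9. When 1 array was left out, 5 to 8 passed (6501 to 7609 of all genes). In the comparison of depots these ranges were 6 to 6 and 8464 to 9134. There 5 were higher and 2 lower in BAT with both quantile settings, 9 were higher with Actb and Rplp0 scaling and 5 with spike-ins.

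Signs turned in BAT for Dnm1l (0.10 with quantile normalization, 0.12 with normexp and quantile normalization, 0.0021 with normexp and 75th percentile scaling, 0.45 with spike-ins) and Fundc1 (0.011, 0.043, 0.013 and 0.45), and with spike-ins for Mfn1 (0.076), Fis1 (0.11) and Bnip3l (0.045). In gWAT they turned for Pink1 (0.084 with spike-ins, 0.15 with the other probe) and Bnip3l (-0.085 with quantile normalization, -0.096 with normexp and quantile normalization, -0.30 with the slide or scan day block). Between depots they turned for Fis1 (-0.30 with quantile normalization, -0.31 with normexp and quantile normalization, -0.055 with spike-ins, -0.049 with the other probe), for Bnip3 (-0.63 with both quantile settings) and for Bnip3l. The Bnip3l values were -0.38 with quantile normalization, -0.41 with normexp and quantile normalization, -0.21 with spike-ins, -0.071 with normexp and 75th percentile scaling and -0.0049 with the mean of the probes. They were -0.033 with the slide block, -0.0100 with a random slide block, -0.034 with the other probe, and -0.088 to 0.16 when 1 array was left out (-0.011 and -0.0024 without BAT control replicates 1 and 2, -0.088 and -0.0044 without gWAT control replicates 1 and 3). The cause was not tested.

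Between controls and KO, deviations of arrays with the same replicate number had r of -0.01 to 0.17 in BAT and -0.12 to 0.51 in gWAT. Between BAT and gWAT they had r of -0.038 to 0.17 in controls and -0.12 to 0.25 in KO. Arrays of unlike number there had -0.18 to 0.13 and -0.12 to 0.18. These values did not show that the numbers pair the arrays, but cannot exclude that 1 mouse gave both tissues. With the replicate number as a block, 8609 genes passed in BAT, 1087 in gWAT, 6527 in the interaction and 9031 between depots, and 7, 1, 5 and 6 of the set. Pink1 (adjusted p = 0.0536) and Bnip3l (adjusted p = 0.0759) did not pass in the interaction. There the block was set within each tissue, so a mouse shared by both tissues was not modelled. All 8 BAT arrays were scanned on day 1. In gWAT control replicates 1 to 3 were scanned on day 1, and control replicate 4 with the 4 arrays labelled KO on day 2, so that the scan day as a block, chosen after seeing the data, gave the same values as the slide block there (184 of all genes and 0 of the set passed). In the interaction it gave 4561 of all genes and 2 of the set, Opa1 and Mfn2, and between depots 9024 and 6. In gWAT, the limma standard errors of the log2 changes were 0.12 to 0.24 for the genes of the set. Opa1 (0.56, standard error 0.19) and Fis1 (0.45, standard error 0.18) had unadjusted limma p-values of 0.0177 and 0.0307. Neither passed after adjustment. Mfn2 (0.45), Pink1 (-0.36), Dnm1l (0.28), Mfn1 (0.28) and Fundc1 (0.27) were not under 0.05 even unadjusted.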
